A study of Mus musculus with 12 samples.

Results

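The clustered protocadherins are cell surface adhesion proteins encoded by 3 neighbouring gene clusters, alpha, beta and gamma. They were followed here in mouse hippocampus and cerebellum. Members were the rows of both count tables whose identifier carries a symbol starting Pcdha, Pcdhb or Pcdhg followed by a digit, a, b or c, a rule that used no measured value. This gave 58 of 54446 genes, of which 14 were alpha, 22 beta and 22 gamma. Poly(A) RNA of 3 Syt14-/- mice and 3 Syt14+/+ (wild-type) mice had been sequenced. Syt14 encodes a synaptotagmin, and the labels relate the study to its role in mood disorder and motor coordination. The groups were knockout hippocampus, wild-type hippocampus, knockout cerebellum and wild-type cerebellum, with 3 libraries each. By their animal numbers, each of the 6 mice gave 1 library per tissue. The sources used here do not give strain, age, sex or the kind of Syt14 allele, and no group carried a treatment.

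Each alpha and gamma gene is a variable first exon with its own promoter, spliced to constant exons that all genes of the cluster share. Beta genes have no constant exons. A neuron switches on a small random selection of these promoters, with the help of CTCF, cohesin and DNA methylation, and the proteins meet on facing membranes and bind only like partners, so that a neuron tells its own branches from those of others. The last genes of the alpha and gamma clusters, called C-type (Pcdhac1, Pcdhac2, Pcdhgc3, Pcdhgc4 and Pcdhgc5), follow other rules and are used by most neurons of a type. PCDHGC4 is known for neuronal survival and the serotonergic use of Pcdhac2 for axon tiling. In whole tissue RNA the promoter choices of single neurons are averaged.

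All members lie on the plus strand of mouse chromosome 18. In GENCODE M21 on GRCm38, the alpha cluster spans 36930184 to 37187661, the beta cluster 37264938 to 37524479 and the gamma cluster 37661793 to 37841873. Shared constant exons limit what a count per gene can hold. The median share of a member's exonic bases that no other gene on its strand covers was 46.4% in the alpha cluster, 55.3% in the gamma cluster and 100% in the beta cluster. The median number of such unique bases was 2479.5 for alpha, 2629.5 for gamma and 3714.0 for beta members. Pcdha4 has 494 unique bases, because the predicted gene Gm42416, itself without a count, covers most of its variable exon. Levels are therefore compared between members as scaled CPM (CPM, the counts scaled to library size, with TMM factors) per kilobase of unique exon. All other values compare a gene with itself in scaled CPM. The levels hold variable exon reads only if reads on shared exons were left uncounted, which the sources used here do not state.

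Antisense genes add a second limit. Of all protein-coding genes in the tables with enough unique exon, 28 had under 2% of it free of genes on the opposite strand, and their median count per library was 0.0. It was 132.7 for 16189 genes wholly free of them and 253.3 for 630 genes that were 25 to 75% free. Values of members that overlap an antisense gene may thus rest on part of their exon. Whether partial overlap costs reads was not tested, since these sets hold different genes. Ignoring strand lowered the unique length by over 1.5 times for 5 members, Pcdha11, Pcdhb12, Pcdhga10, Pcdhga11 and Pcdhgc3. Pcdhga10 has 2613 unique bases with strand and 0 without, so its 4 to 21 counts per library say little of its level.

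Library totals were 24355572 to 34971359 counts, of which 15534 to 21753 fell on members, and 57 to 58 of the 58 members had a count in each library. The floor of 3 counts equals 0.08578 to 0.1232 CPM, which covers counting error only. Syt14 itself stood at 38.13 to 38.86 scaled CPM in wild-type hippocampus against 28 to 30.6 in the knockout, and at 33.34 to 38.15 in wild-type cerebellum against 30.3 to 30.65. The knockout libraries were lower in both tissues, but the transcript stayed well above the floor in each. At a Benjamini-Hochberg adjusted p under 0.05, edgeR called no gene lower in the knockout of either tissue, Syt14 included. Tissue markers followed the labels. The 5 cerebellar granule cell markers summed to 3064 to 3785 scaled CPM in the cerebellum and 32.5 to 38.3 in the hippocampus, where Gabra6 was at 0.026 in the wild type and 0 in the knockout. The 7 hippocampal pyramidal and dentate markers summed to 742 to 800 in the hippocampus and 118 to 141 in the cerebellum. Fewer cells of a type and less RNA per cell cannot be told apart in such samples.

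Per kilobase of unique exon, a C-type gene stood highest in each tissue of the wild type, but not the same one. In wild-type hippocampus Pcdhgc5 led with 29.37 ± 1.215 scaled CPM per kb (SD, n = 3). Pcdhac2 followed with 15.53 ± 0.676 and Pcdhgc3 with 10.27 ± 0.0760. The next gene, Pcdhgb6 of the gamma B subfamily, had 7.90 ± 1.19. In wild-type cerebellum Pcdhgc3 led with 24.35 ± 1.65 scaled CPM per kb. Pcdhac2 and Pcdhgb6 came next with 14.58 ± 1.55 and 14.58 ± 1.25, which did not differ beyond their spread, and Pcdhgb2 followed with 7.749 ± 0.549. Pcdhgc5 stood at 3.806 ± 0.308 there, at rank 17 of 58. The other C-type genes stood lower in the order, with hippocampal and cerebellar ranks of 11 and 7 for Pcdhgc4 and of 29 and 31 for Pcdhac1. If counting ignored strand, Pcdhgc3 would have 19.07 per kb in the hippocampus, above Pcdhac2, and 45.2 in the cerebellum, since the antisense gene BC037039 covers part of its exon. Pcdhga11 would then follow Pcdhac2 in the hippocampus with 11.77, above Pcdhgb6. In the cerebellum Pcdhga11 with 12.55 and Pcdhgb7 with 9.366 would both stand above Pcdhgb2.

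Levels of the members spread widely, from 0.03112 to 29.37 scaled CPM per kb in wild-type hippocampus and from 0.02149 to 24.35 in wild-type cerebellum. The median over all 58 was 1.959 scaled CPM per kb in wild-type hippocampus and 1.863 in wild-type cerebellum. Gamma members had medians of 4.272 and 4.443, alpha members 1.69 and 1.386, and beta members 1.762 and 1.442. Pcdhb9 was highest among the beta genes in both wild-type groups, with 5.28 ± 0.531 in the hippocampus and 4.418 ± 0.416 in the cerebellum. Pcdhb20, with 3.838 ± 0.417 and 4.077 ± 0.521, lay within the spread of Pcdhb17, with 3.83 ± 0.534 and 4.038 ± 0.377. Among alpha genes Pcdha12 came after Pcdhac2, with 3.276 ± 0.335 and 2.184 ± 0.555. The cerebellar value of Pcdha12 did not differ beyond its spread from the 2.165 ± 0.388 of Pcdha9. The lowest per kb in both wild-type groups were Pcdha11, with 2 to 10 counts per library, and Pcdhb1, with 0 to 11. These and Pcdha4, with 5 to 14 counts, were left out by the filter on low counts in some or all comparisons.

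**Figure D1:**
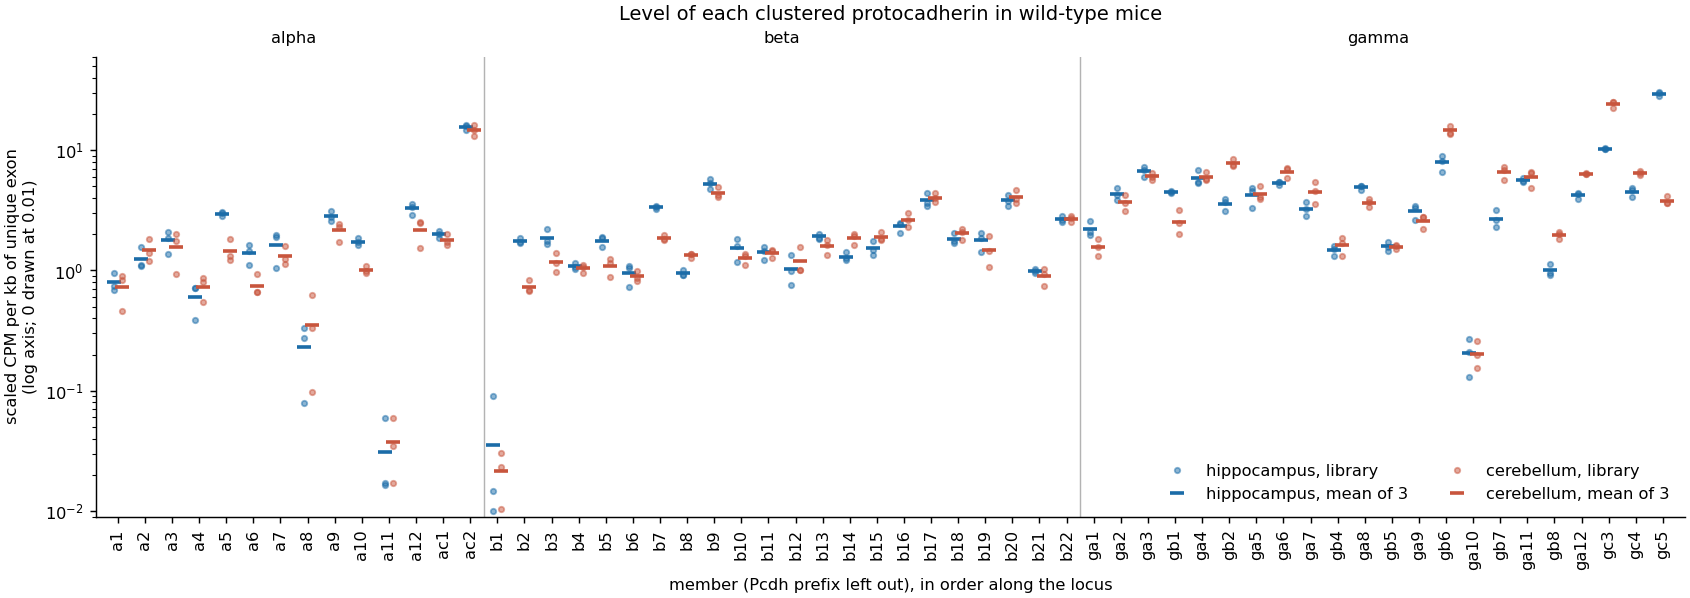
Level of each of the 58 members in wild-type mice, in scaled CPM per kb of unique exon on a log axis, in order along the locus. Points are the 3 libraries of a tissue and bars their mean; Pcdhgc5 stands at 29.37 in the hippocampus and 3.806 in the cerebellum, while Pcdhac2 stands at 15.53 and 14.58.

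The levels of the members varied modestly between animals. Over the 45 members with a mean count of at least 100, the median coefficient of variation across 3 libraries was 9.71% in wild-type hippocampus, 11.74% in knockout hippocampus, 10.64% in wild-type cerebellum and 9.53% in knockout cerebellum. Counting alone would give about 5.77 to 6.24%. Across the 58 members, log2 levels correlated between wild type and knockout with r of 0.992 for hippocampus and 0.995 for cerebellum. Between the tissues of the wild type r was 0.926. These describe genes of the same libraries, which are not independent replicates.

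In summed level, gamma members had 387.2 ± 11.6 scaled CPM in wild-type hippocampus (SD, n = 3) and 368.5 ± 25.9 in wild-type cerebellum. Beta members summed to 179.8 ± 7.68 and 171.7 ± 13.1, and these ranges overlap as well. Alpha members summed to 95.79 ± 3.19 and 80.72 ± 11.6, with single libraries of 99.05, 95.66 and 92.66 against 80.78, 69.08 and 92.31. With this scaling the alpha ranges do not overlap, although the highest cerebellar library lies next to the lowest hippocampal one. In plain CPM the order turned for gamma, with 368.2 in wild-type hippocampus and 384.9 in wild-type cerebellum, and for beta, with 171 and 179.3. Alpha sums were then 91.12 and 84.27, and their libraries overlapped, with 94.22, 91.88 and 87.27 against 83.8, 73.4 and 95.59. No test was made on these sums.

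Within the gamma cluster the leading C-type gene was not the same in the 2 tissues. Pcdhgc5 had 140.2, 129.2 and 136.5 scaled CPM in wild-type hippocampus and 137.6, 121.4 and 117 in the knockout. In the cerebellum it had 16.74, 16.68 and 19.17 in the wild type and 16.04, 16.93 and 19.18 in the knockout. Every hippocampal library lay far above every cerebellar one. The fall was 7.73-fold in the wild type, a log2 change of -2.95 ± 0.06 (SE, edgeR adjusted p = 4.3e-13), and -2.84 ± 0.08 in the knockout (adjusted p = 4.9e-09). Pcdhgc5 is the most downstream gene of the cluster.

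Pcdhgc3 changed in the other direction. It had 34.43, 34.91 and 34.82 scaled CPM in wild-type hippocampus and 38.54, 34.79 and 35.42 in the knockout. The cerebellum gave 85.73, 75.86 and 85.33 in the wild type and 73.07, 80.01 and 87.39 in the knockout. All cerebellar libraries were above all hippocampal ones. Pcdhgc3 rose by a log2 change of 1.24 ± 0.06 in the wild type (edgeR adjusted p = 9.2e-10) and 1.15 ± 0.07 in the knockout (adjusted p = 6.8e-07). BC037039, the antisense gene at its exon, also rose in both comparisons, from 1 to 13 counts per hippocampal library to 19 to 64 per cerebellar one. Its part in the value of Pcdhgc3 was not tested. The count ratio of Pcdhgc5 to Pcdhgc3 was 3.897 ± 0.187 in wild-type hippocampus and 0.2133 ± 0.0158 in wild-type cerebellum. In the knockout it was 3.455 ± 0.138 and 0.2169 ± 0.00459.

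Pcdhgc4, which lies between them, rose in the cerebellum by a smaller amount. It had 14.07, 16.94 and 16.17 scaled CPM in wild-type hippocampus, 14.34, 16.86 and 14.73 in the knockout, 22.56, 21.45 and 23.33 in wild-type cerebellum and 21.05, 21.56 and 21.14 in the knockout. The tissues did not overlap. The log2 change was 0.51 ± 0.09 in the wild type (edgeR adjusted p = 0.00020) and 0.48 ± 0.08 in the knockout (adjusted p = 0.00067). Pcdhgc5 made up 34.93% of the gamma counts in wild-type hippocampus and 4.761% in wild-type cerebellum. The share of Pcdhgc3 was 8.975% and 22.34%. All 5 C-type genes together held 35.9 ± 0.429% of the members' counts in wild-type hippocampus and 27.55 ± 0.325% in wild-type cerebellum. Gamma genes other than C-type summed to 201.4 ± 7.50 scaled CPM in wild-type hippocampus and 246.2 ± 18.6 in wild-type cerebellum.

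The alpha C-type genes did not pass the test between the tissues. Pcdhac2 had 47.75, 48.59 and 44.7 scaled CPM in wild-type hippocampus, 45.96, 45.08 and 47.92 in the knockout, 44.17, 39.42 and 48.81 in wild-type cerebellum and 38.56, 40.7 and 47 in the knockout. The groups overlap. Its log2 difference was -0.10 ± 0.07 in the wild type (edgeR adjusted p = 0.28) and -0.13 ± 0.08 in the knockout (adjusted p = 0.15). The sign depends on the scaling, and without wild-type cerebellum replicate 3 it was -0.17 with an adjusted p of 0.046. Without knockout cerebellum replicate 3 it was -0.23 with an adjusted p of 0.012. Pcdhac2 held 49.08 ± 1.48% of the alpha counts in wild-type hippocampus and 54.88 ± 2.10% in wild-type cerebellum. Pcdhac1 had 5.188, 4.749 and 5.43 scaled CPM in wild-type hippocampus and 4.393, 4.144 and 5.134 in wild-type cerebellum. In the knockout it had 4.613, 4.172 and 4.578 in the hippocampus and 4.195, 5.109 and 5.244 in the cerebellum. Its log2 differences were -0.17 ± 0.14 and 0.13 ± 0.15, with edgeR adjusted p of 0.31 and 0.47.

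**Figure D2:**
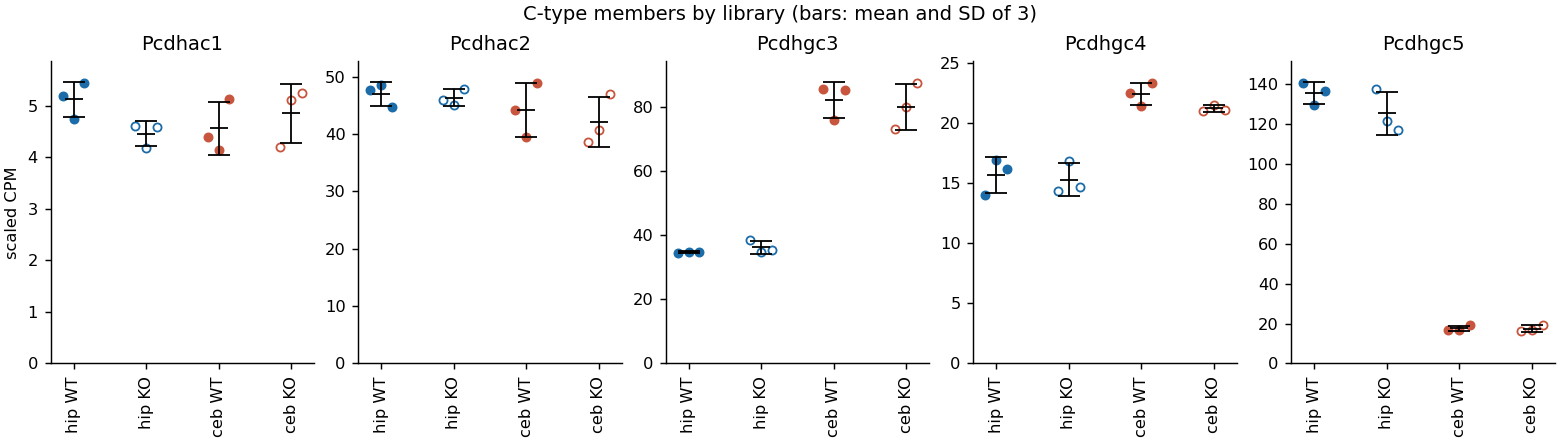
Scaled CPM of the 5 C-type members in each library of the hippocampus (hip) and cerebellum (ceb), wild type (WT, filled) and knockout (KO, open), with the mean and SD of 3 in black and each axis starting at 0. Pcdhgc5 falls from 117 to 140.2 in the hippocampus to 16.04 to 19.18 in the cerebellum, Pcdhgc3 and Pcdhgc4 are higher in the cerebellum, and the alpha C-type genes overlap.

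Many members of all 3 clusters differed between the tissues, in both directions. In the wild type, 25 of 55 tested members changed at a Benjamini-Hochberg adjusted p under 0.05 (edgeR), or 45.5%, against 66.1% of all genes tested. Of these 11 were higher in the cerebellum, where 33.0% of all genes were, and 14 lower, where 33.1% were. In the knockout, 31 of 56 changed, or 55.4% against 64.1%, with 12 higher against 32.5% and 19 lower against 31.6%. The median size of the log2 difference was 0.29 over members and 0.46 over all genes in the wild type, and 0.34 and 0.46 in the knockout. The groups did not overlap for 25 members in the wild type, against 70.7% of all genes, and for 31 in the knockout, against 70.3%. With the animal as a block, edgeR called 27 members, against 65.9% of all genes, and 32, against 61.8%. The shares were not compared by a test, and members were not matched to other genes by count. With library totals alone, which raise the median of all genes from 0.02 to 0.16 in both comparisons, the split was 14 higher and 12 lower in the wild type and 13 and 13 in the knockout. The shares of all genes called higher and lower with that scaling are not given here, so this split is no result about the members.

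The wild-type and knockout comparisons use separate libraries and animals. Of the 55 members tested in both, 10 were higher in both, 13 lower in both and 0 called in opposite directions. The sign was the same for 49. Across these 55 genes the log2 differences correlated with r of 0.940 and rho of 0.904. Most genes were called in these comparisons, 66.1% of all tested in the wild type and 64.1% in the knockout. The same overlap was not counted over all genes, so this agreement is no result about the members in particular. All hippocampus columns carry L1 in their names and all cerebellum columns L4, whose meaning is not given, so the tissues cannot be told apart from whatever that records. Neuronal makeup differs as well. The 5 Purkinje markers summed to 643 to 722 scaled CPM in the hippocampus and 5574 to 7268 in the cerebellum, and 4 general neuronal markers to 3994 to 4654 and 3428 to 3770. Of these 4, Syt1 was lower in the cerebellum, with means of 1859 and 512.3 in the wild type. The others were higher there, Rbfox3 with 299.6 and 438.3, Snap25 with 2015 and 2275, and Stmn2 with 280.7 and 479.6. The part of these in the differences was not tested.

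Among members that passed the test, the 6 with the largest rise in the wild type were gamma genes. In the knockout the beta gene Pcdhb8 had the rise next to that of Pcdhgc3. Over the cluster, 9 of 22 gamma members rose and 4 fell in the wild type, where 33.0% of all genes rose and 33.1% fell. In the knockout 8 rose and 7 fell, where 32.5% and 31.6% of all genes did. The gamma B subfamily, whose variable exons form a sequence group apart from gamma A, had a median log2 difference of 0.88 in the wild type and 0.66 in the knockout over 7 genes, with 4 higher and 1 lower in each. The 12 gamma A genes had medians of -0.00 and -0.12, with 3 higher and 2 lower in the wild type and 2 higher and 5 lower in the knockout.

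Pcdhgb7 had 5.974, 6.838 and 8.224 scaled CPM in wild-type hippocampus and 17.73, 14.75 and 18.74 in wild-type cerebellum. The knockout gave 7.59, 8.45 and 8.537 against 14.72, 13.9 and 14.97. No library overlapped between tissues, and the log2 change was 1.28 ± 0.13 in the wild type (edgeR adjusted p = 2.1e-06) and 0.83 ± 0.09 in the knockout (adjusted p = 3.2e-05). Pcdhgb2 had 10.85, 8.7 and 10.23 against 23.15, 20.69 and 20.38 in the wild type, and 7.59, 13.29 and 7.367 against 13.76, 18.8 and 16.4 in the knockout. It rose by 1.10 ± 0.10 and 0.80 ± 0.22 on the log2 scale, with the knockout hippocampus library of 13.29 close to the cerebellar range. Pcdhgb6 had 22.99, 16.98 and 20.82 against 35.86, 35.25 and 41.1 in the wild type and 21.72, 15.45 and 16.28 against 33.52, 29.02 and 33.85 in the knockout. Its log2 changes of 0.88 ± 0.10 and 0.86 ± 0.13 were nearly equal.

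Pcdhgb8, annotated as a polymorphic pseudogene, rose at low level. It had 2.28, 2.393 and 2.833 scaled CPM in wild-type hippocampus and 5.027, 4.548 and 5.255 in wild-type cerebellum, a log2 change of 0.98 ± 0.16. In the knockout the values were 3.313, 2.652 and 2.375 against 4.158, 4.496 and 4.414, a change of 0.66 ± 0.17. Pcdhga12, the last gamma A gene, rose from 20.2, 19.79 and 17.79 to 28.89, 29.01 and 29.31 in the wild type and from 24.62, 22.13 and 18.55 to 25.5, 27.38 and 27.38 in the knockout. Its log2 changes were 0.59 ± 0.07 and 0.31 ± 0.10. Pcdhgb1 was the gamma B gene that fell. It had 11.79, 12.04 and 11.65 against 5.224, 6.458 and 8.262 in the wild type and 9.31, 9.687 and 6.954 against 5.041, 4.666 and 6.372 in the knockout. Its log2 changes were -0.83 ± 0.15 and -0.68 ± 0.17, with no overlap between tissues in either genotype. The edgeR adjusted p of these gamma B genes and Pcdhga12 ranged up to 0.024.

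No alpha gene passed the test as higher in the cerebellum, with TMM factors or with library totals alone. With TMM factors 33.0% of all genes did in the wild type and 32.5% in the knockout. Log2 differences were above 0 for 2 of 12 alpha members in the wild type and 3 of 13 in the knockout. The largest was that of Pcdha8, 0.60 ± 0.60 and 0.63 ± 0.39, at 5 to 51 counts per library. In the wild type 5 of 12 tested alpha members were lower in the cerebellum, and in the knockout 5 of 13. These shares are near those of all genes, 33.1% and 31.6%, and so are no result about the cluster as a whole. Pcdha5 had 7.153, 7.066 and 6.689 scaled CPM in wild-type hippocampus and 3.087, 2.879 and 4.253 in wild-type cerebellum, a log2 change of -1.03 ± 0.16. The knockout gave 4.529, 5.975 and 5.164 against 3.385, 2.861 and 3.186, a change of -0.73 ± 0.16. Pcdha6 had 3.341, 3.685 and 2.558 against 1.504, 1.507 and 2.126 in the wild type, and 2.894, 3.253 and 3.133 against 1.803, 1.431 and 2.058 in the knockout. Its log2 changes were -0.90 ± 0.22 and -0.80 ± 0.20. These genes did not overlap between tissues in either genotype. Pcdha12 fell from 8.372, 7.18 and 8.775 to 6.135, 3.821 and 6.258 in the wild type, a log2 change of -0.60 ± 0.18, and from 8.89, 6.647 and 8.572 to 4.636, 4.223 and 3.684 in the knockout, a change of -0.94 ± 0.16. Pcdha9 fell in both as well, Pcdha10 in the wild type and Pcdha3 in the knockout.

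Beta genes, each a single exon block, moved in both directions. In the wild type 2 of 21 tested beta members were higher in the cerebellum and 5 lower, and in the knockout 4 were higher and 7 lower. Over all genes 33.0% were higher and 33.1% lower in the wild type, and 32.5% and 31.6% in the knockout, with TMM factors. With library totals alone the split was 5 higher and 4 lower in the wild type and 5 and 5 in the knockout. The shares of all genes with that scaling are not given here. Pcdhb2 had 5.188, 4.863 and 4.722 scaled CPM in wild-type hippocampus and 1.9, 1.938 and 2.339 in wild-type cerebellum, a log2 change of -1.26 ± 0.16 (edgeR adjusted p = 1.9e-05). The knockout gave 4.613, 4.136 and 3.58 against 1.877, 1.499 and 1.859, a change of -1.23 ± 0.19. Pcdhb7 had 11.32, 11.82 and 12.08 against 6.293, 6.862 and 6.44 in the wild type and 12.04, 12.62 and 12.77 against 6.586, 5.211 and 6.439 in the knockout. Its changes were -0.85 ± 0.10 and -1.03 ± 0.11. In both genes every hippocampal library was above every cerebellar library.

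Pcdhb5 fell from 5.581, 6.648 and 6.571 to 4.393, 3.149 and 4.04 in the wild type and from 6.081, 6.823 and 9.742 to 3.054, 3.849 and 4.315 in the knockout. Its log2 changes were -0.71 ± 0.16 and -1.01 ± 0.21. Pcdhb14 rose from 10.97, 10.6 and 12.39 to 17.38, 14.29 and 16.86 in the wild type, a change of 0.51 ± 0.11, and from 10.4, 10.36 and 10.02 to 16.52, 15.22 and 15.63 in the knockout, a change of 0.63 ± 0.08. Pcdhb8 rose from 3.184, 3.191 and 3.502 to 4.75, 4.817 and 4.435 in the wild type and from 2.432, 2.652 and 3.993 to 4.857, 4.768 and 7.7 in the knockout. Its log2 changes were 0.50 ± 0.15 and 0.93 ± 0.25, and the knockout libraries spread widely. Pcdhb9, the highest beta gene per kb in the wild type, had 14.5, 16.15 and 17.75 scaled CPM in wild-type hippocampus and 12.98, 12.57 and 14.95 in wild-type cerebellum, with a fall of 1.20-fold (edgeR adjusted p = 0.041) that library totals alone did not call. Its groups overlap. Pcdhb20 had 12.22, 13.56 and 15.19 against 16.54, 14.07 and 12.91, and did not pass in the wild type. Pcdhb3 was lower in both genotypes, and Pcdhb20 and Pcdhb22 were higher in the knockout comparison.

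Position along the cluster went with the tissue difference in the beta cluster, and in the gamma cluster once the C-type genes were left out. Over 21 beta genes, the Spearman correlation of order with the log2 difference was 0.478 in the wild type and 0.647 in the knockout. The 10 upstream genes, Pcdhb2 to Pcdhb11, had a median of -0.28 in the wild type and -0.37 in the knockout. Of them 5 and 6 were called lower in the cerebellum, and 1 was called higher in each. The 11 downstream genes, Pcdhb12 to Pcdhb22, had medians of 0.08 in both, with 0 and 1 lower and 1 and 3 higher. Over all genes 33.1% and 31.6% were lower, and 33.0% and 32.5% higher. Over the 19 gamma genes other than C-type rho was 0.521 and 0.546. Their 9 upstream genes, up to Pcdhga7, had medians of 0.03 in the wild type and -0.25 in the knockout. The 10 downstream ones had 0.11 and 0.10, so the medians lay close together in the wild type. Upstream 2 and 4 were called lower and 3 and 2 higher, and downstream 1 and 2 lower and 4 and 4 higher. Over all 22 gamma genes rho was 0.389 and 0.412, with a Pearson r of 0.076 and 0.106. Over alpha genes other than C-type rho was -0.35 in the wild type, with 10 genes, and -0.20 in the knockout, with 11. Over all tested alpha genes it was -0.042, with 12, and 0.159, with 13. The points share libraries and neighbouring promoters, so no p is given.

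**Figure D3:**
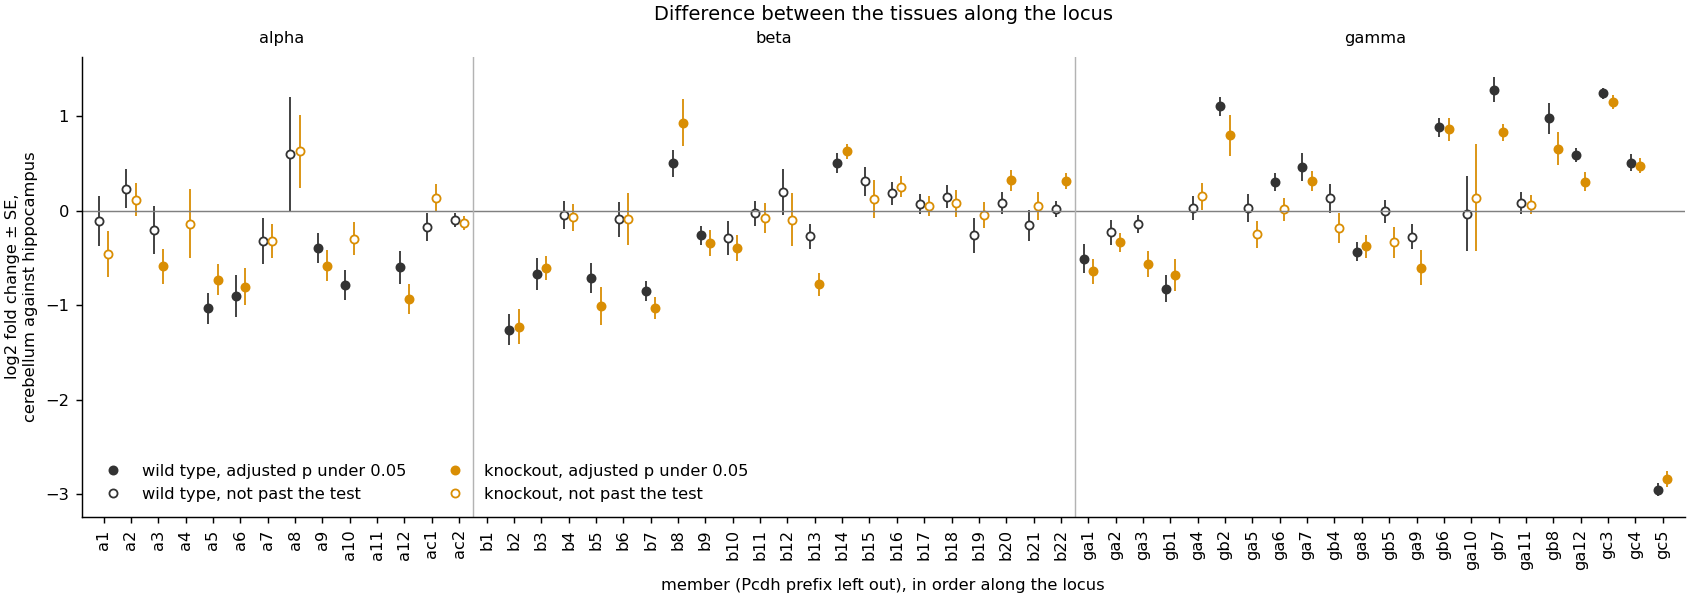
Log2 fold change of each tested member in the cerebellum against the hippocampus, in order along the locus, with the SE as bars, for wild type (dark) and knockout (yellow); filled points have an adjusted p under 0.05. Pcdhgc5 lies at -2.95 and -2.84, Pcdhgb7 at 1.28 and Pcdhgc3 at 1.24 lie highest in the wild type, and Pcdhgc3 at 1.15 and Pcdhb8 at 0.93 in the knockout.

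Relatives and partners of the clustered genes differed between the tissues to various degrees. The non-clustered protocadherins, adhesion genes that lie outside these clusters, were lower in the cerebellum for 11 of 12 in the wild type and 10 of 12 in the knockout, where 33.1% and 31.6% of all genes were, and 0 were higher. Their median log2 difference was -1.88 and -1.50, against 0.02 and 0.03 over all genes. Pcdh19, a gene linked to epilepsy, went from 122 to 128.7 scaled CPM in wild-type hippocampus to 7.533 to 8.51 in wild-type cerebellum, a log2 change of -4.01. Pcdh1 went from 451.9 to 470.1 down to 90.83 to 94.14, a change of -2.32. The log2 changes of Pcdh8 and Pcdh20 were -4.77 and -2.86. Of the clustered genes, Pcdhgc5 was the one whose fall exceeded 2.32 in the wild type.

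Regulators of protocadherin promoters and chromatin were mostly higher in the cerebellum, 13 of 18 in the wild type and 14 of 18 in the knockout, where 33.0% and 32.5% of all genes were, with 1 lower in each. Their medians were 0.40 and 0.41. Rad21, the cohesin subunit, had 133.7 to 143 scaled CPM in wild-type hippocampus and 221.1 to 229.8 in wild-type cerebellum, a log2 change of 0.71. The DNA methyltransferases Dnmt3a and Dnmt1 rose by 0.72 and 0.59, and Dnmt3b by 1.33 from a low level. Ctcf, which binds the promoters and the enhancer, rose by 0.40. Pds5b, a cohesin partner, fell by 0.76. All of these also passed the test in the knockout, in the same direction.

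Intracellular partners, such as the focal adhesion kinases and the WAVE actin complex, were mostly lower, 14 of 21 in the wild type and 13 of 21 in the knockout, where 33.1% and 31.6% of all genes were, with 5 and 4 higher. Their medians were -0.60 and -0.66. Ptk2b, the kinase PYK2 that gamma and alpha protocadherins bind, had 905.8 to 1023 scaled CPM in wild-type hippocampus and 6.27 to 7.837 in wild-type cerebellum, a log2 change of -7.08. The WAVE complex genes Wasf1 and Nckap1 had log2 changes of -2.30 and -1.26, and the kinase gene Prkca of -2.25. Ret, a receptor that protocadherins associate with, rose by 2.71 and the gamma-secretase gene Psen2 by 0.67. None of the genes of these 3 lists passed the test for genotype in either tissue.

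**Figure D4:**
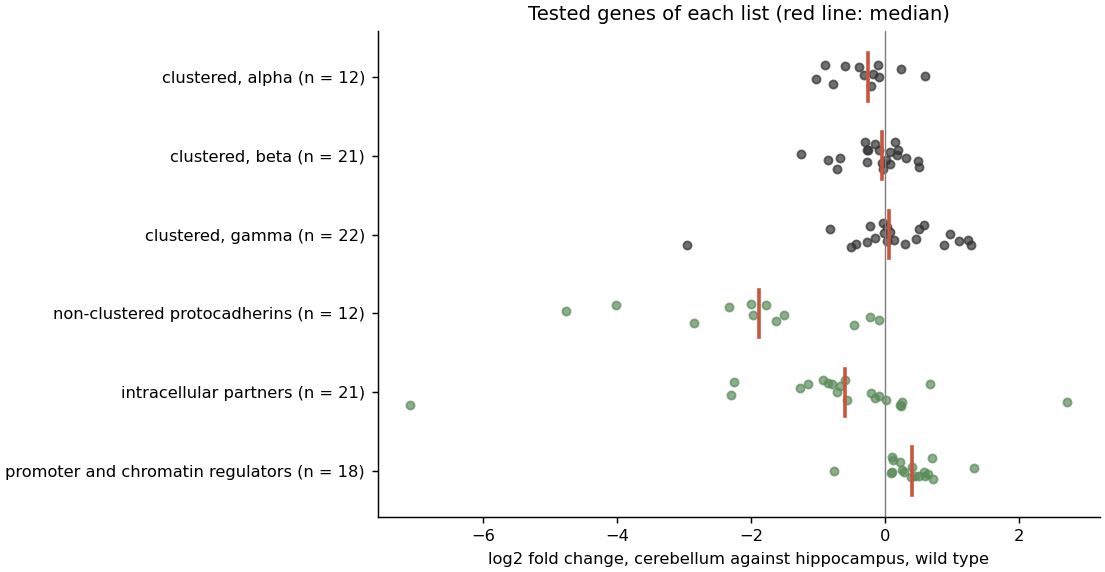
Log2 fold change, cerebellum against hippocampus in the wild type, of each tested gene of the clustered protocadherins by cluster and of 3 lists of relatives, partners and regulators; points are genes, spread vertically for legibility, and red lines are medians. The non-clustered protocadherins lie lowest with a median of -1.88, and the regulators highest with 0.40.

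Syt14 genotype moved no member past the test in the hippocampus. edgeR called 0 of 55 tested members, as it called 0 of all 17693 genes tested (0%). DESeq2 called 0 members, where it called 0.0226% of all genes. At an unadjusted p under 0.05 edgeR had 5 members, or 9.09%, against 4.34% of all genes. Knockout and wild type did not overlap for 11 of 55 members, against 9.81% of all genes. Log2 differences of the members ranged from -0.45 to 0.34, with a median of -0.03, and 31 of 55 were below 0.

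The member with the smallest unadjusted p in the hippocampus was Pcdhgb1, whose knockout values of 9.31, 9.687 and 6.954 scaled CPM lay below those of the wild type, 11.79, 12.04 and 11.65. Its log2 difference was -0.45 ± 0.13 (edgeR adjusted p = 0.995), without overlap. Pcdha5, with 4.529, 5.975 and 5.164 against 7.153, 7.066 and 6.689, differed by -0.41 ± 0.14. Pcdha10, with 3.355, 3.429 and 3.27 against 4.048, 4.293 and 4.682, differed by -0.37 ± 0.16. Pcdhga6, with 16.35, 17.01 and 16.8 against 14.11, 13.41 and 14.17, differed by 0.27 ± 0.08. Pcdhb11, with 7.465, 7.813 and 7.642 against 5.424, 6.952 and 6.414, differed by 0.29 ± 0.13, and Pcdha9 by -0.30 ± 0.15. Of these 6 genes with the smallest p, Pcdha9 alone overlaps between the groups. None passed, with an edgeR adjusted p of 0.995 for each.

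In the cerebellum 0 of 56 tested members were called either, where edgeR called 2 of 17733 genes, 0.0113%, and DESeq2 called 0 members and 0.254% of all genes. At an unadjusted p under 0.05 edgeR had 9 members, or 16.1%, against 6.77% of all genes. The groups did not overlap for 11 members, or 19.6%, against 11.9% of all genes. In 9 of these the knockout was lower, and in Pcdhb10 and Pcdhb22 it was higher. Without the filter on low counts edgeR called 2 members lower, Pcdhgb2 with an adjusted p of 0.0027 and Pcdhga9 with 0.019, among 417 genes called in all. The share of all genes called in that fit is not given here, so the 2 calls are no result about the members as a set.

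No gamma member passed the test in the cerebellum, but most had the same sign. Of 22, 20 had a log2 difference below 0, with a median of -0.13 against 0.00 over all genes. The 22 genes share libraries and a locus and are not independent replicates. In the hippocampus 11 of 22 were below 0 and the median was -0.00. The lean in the cerebellum was not confined to the gamma cluster. Alpha members had a cerebellar median of -0.12, with 8 of 13 below 0, and beta members -0.04, with 12 of 21. Mean summed levels in knockout cerebellum differed from the wild type by -7.119% for alpha, 1.905% for beta and -8.728% for gamma. All 7 gamma B genes were below 0 in the cerebellum, with a median of -0.25, and 10 of 12 gamma A genes. Gamma sums were 378.2, 339.2 and 388.1 scaled CPM in wild-type cerebellum and 324.3, 332.8 and 351.9 in the knockout, which overlap through wild-type replicate 2. That library was the lowest wild type for all 3 clusters. Without it the gamma median was -0.25 with 21 below 0. Without wild-type replicate 1 it was -0.08 with 17 below 0, and without knockout replicate 3 it was -0.19 with 20. Over all fits that left out 1 library, 16 to 21 members were below 0.

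Pcdhgb5 had the smallest p, with 5.703, 5.415 and 5.609 scaled CPM in knockout cerebellum and 7.52, 7.024 and 7.321 in the wild type. Its log2 difference was -0.39 ± 0.10 (edgeR adjusted p = 0.61). Pcdhgb2 had 13.76, 18.8 and 16.4 against 23.15, 20.69 and 20.38, a difference of -0.39 ± 0.11 (adjusted p = 0.63). Pcdhga9 had 7.469, 6.676 and 4.879 against 9.578, 7.696 and 9.66, a difference of -0.50 ± 0.16 (adjusted p = 0.66). Pcdha9, with 3.937, 3.781 and 3.584 against 6.095, 4.279 and 5.741, differed by -0.51 ± 0.16 (adjusted p = 0.64). In each of these 4 genes all knockout libraries were below all wild-type ones. Pcdhgb6 differed by -0.22 and Pcdhb22, with 18.58, 19.07 and 20.48 against 16.86, 15.55 and 17.47, by 0.22, both with an adjusted p of 0.69.

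Markers of tissue next to the cerebellum differed between these libraries. The 6 choroid plexus markers summed to 1945, 2658 and 1047 scaled CPM in wild-type replicates 1 to 3 and 966.5, 1772 and 25.66 in knockout replicates 1 to 3. The 7 brainstem markers summed to 5.185, 1.426 and 1.762 in the wild type and 18.03, 34.95 and 1.128 in the knockout, and the 3 serotonergic markers reached 4.598 in knockout replicate 2. Hoxb3 and Hoxa5 were close to 0 in both groups. The part of these tissues in the gamma values was not tested.

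**Figure D5:**
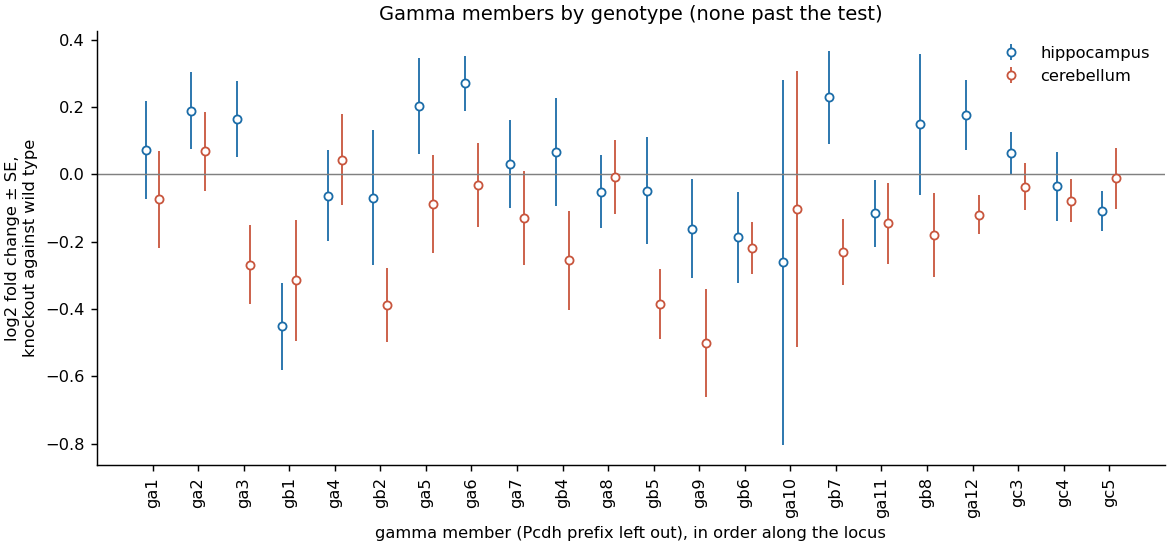
Log2 fold change of each gamma member in the knockout against the wild type, with the SE as bars, in hippocampus (blue) and cerebellum (red), in order along the locus; none passed the test. In the cerebellum 20 of 22 points lie below 0, and in the hippocampus 11 of 22.

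Whether the genotype difference differs between the tissues was asked by an interaction test over all 12 libraries, which no member passed. edgeR called 0 of 56 members, where it called 0.0105% of all genes. DESeq2 called 0 members, where it called 0.0815%. At an unadjusted p under 0.05 edgeR had 6 members, or 10.7%, against 5.34% of all genes. They were Pcdhb13 with an interaction of -0.51, Pcdhgb7 with -0.46, Pcdha10 with 0.48, Pcdhga3 with -0.43, Pcdhga12 with -0.29 and Pcdhb22 with 0.29, on the log2 scale, cerebellar minus hippocampal. The smallest edgeR adjusted p among them was 0.896, for Pcdhb13. Its values were 7.926, 7.849 and 7.608 scaled CPM in knockout against 6.839, 7.522 and 6.965 in wild-type hippocampus, and 4.231, 4.36 and 4.978 against 4.987, 6.055 and 6.592 in the cerebellum. The knockout was the higher group in the hippocampus and the lower in the cerebellum, with no overlap in either tissue. A p that misses the threshold does not show that the effects are alike, and the members' interaction values ranged from -0.51 to 0.48.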

How the data were processed

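RNA-seq libraries of poly(A) RNA were strand-specific by dUTP, per the labels' protocols. Trimmomatic 0.39, STAR 2.7.10 and featureCounts 2.0.3 are named in the submitters' processing notes, along with mm10 and GRCm38. The sources used here do not give the annotation release, the strand setting or the treatment of reads that fall on several genes. The authors deposited raw whole-number counts, 1 table per tissue, and every column was mapped to a sample by its animal number.

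Identifiers were matched to GENCODE M21 (54409 of 54446). Of 2 identifiers called Pcdha11 there, the gene at RefSeq's Pcdha10 (ENSMUSG00000007440) is called Pcdha10 here. edgeR 4.0.16 in R 4.3.3 was fitted on all genes of each comparison after filterByExpr (count of at least 10, total of at least 15), with TMM scaling and a two-sided quasi-likelihood test. A Benjamini-Hochberg adjusted p under 0.05 made a call. The SE is the size of the log2 change over the square root of F. DESeq2 1.42.0, other scalings, no filter, a block and leaving out each library were alternatives. Scaled CPM use TMM factors over all 12 libraries. Python 3.11.15 with numpy 2.4.6, pandas 2.3.3 and matplotlib 3.10.9 made the tables and figures. Fits were tested on simulated data.

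Replicates are separate animals. The tissues of an animal pair by the labels' animal numbers, and the correlation of their deviations was 0.0619 to 0.0814 in the wild type and 0.00707 to 0.0483 in the knockout. No 2 libraries of a group were alike within sampling noise, with a chi-square per gene of 4.11 to 12.7. Floors cover counting error only. Named by rule are the C-type genes, the 2 highest members per kb of each cluster and tissue in the wild type, the 6 most changed called members per direction and tissue comparison, and the 6 smallest p per genotype comparison. For other members named, the choice followed their values. The members, lists and markers were chosen with earlier results of these data known.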

Additional observations from a re-analysis of the deposited data

How the results depend on the processing

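Counts of members called between the tissues were 22 to 28 in the wild type and 27 to 29 in the knockout when 1 library was left out, against 25 and 31. The share of all genes called in those fits is not given here, so the range is no result about the members. For both genotype comparisons and the interaction the count of members called stayed at 0 in every such fit. With the animal as a block, which the design supports for the tissues, 27 members were called in the wild type, 32 in the knockout and 0 for the interaction. With the replicate number as a block, which joins different animals, 0 members were called for genotype in either tissue. In the cerebellum each library correlated best with its own number (0.0852, 0.142 and 0.251), a hint from the data alone. Without the filter on low counts the cerebellar genotype count was 2, and the cause was not tested. With library totals alone, chosen after seeing the data, the difference of Pcdhac2 between the tissues reversed to 0.0424 in the wild type and 0.00369 in the knockout, neither past the test, where all genes shift by about the same amount. Log2 changes under alternatives were recorded for the C-type genes between the tissues and the members named for the size or p of their change. Of these log2 changes, 600 kept direction and side of the threshold, 4 passed it newly and 2 reversed. Among other members, library totals alone lost the calls of Pcdha9 and Pcdhb9 in the wild type. In the knockout they lost Pcdha3, Pcdhb9, Pcdhb10, Pcdhga2, Pcdhga8 and Pcdhga9. They gained Pcdhb15, Pcdhb16 and Pcdhb18 in the wild type and Pcdhb16 in the knockout. The length used sets the levels per kb, of which 36 moved by more than their spread. Members under 100 counts are limited by counting.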

Other observations

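Other genes inside the locus also differed between the tissues. Taf7, a gene of the general transcription machinery that lies between the beta and gamma clusters on the minus strand (chromosome 18, 37640491 to 37644204), had 7.639 ± 0.443 scaled CPM in wild-type hippocampus and 15.75 ± 1.02 in wild-type cerebellum (SD, n = 3). Its log2 change was 1.04 ± 0.10 in the wild type and 1.21 ± 0.08 in the knockout. The long noncoding RNA 3222401L13Rik, on the plus strand from 37655451 to 37661742 just upstream of the gamma cluster, rose from 1.93 ± 0.286 to 6.271 ± 0.442, a log2 change of 1.69 ± 0.16 in the wild type and 1.96 ± 0.24 in the knockout. Gm26672, a noncoding transcript on the minus strand from 37746559 to 37768242 within the gamma cluster, rose from 0.4281 ± 0.0463 to 1.029 ± 0.351, a change of 1.25 ± 0.37 and 0.94 ± 0.31. BC037039, antisense to Pcdhgc3 from 37805718 to 37807922, rose by 2.73 ± 0.50 and 1.70 ± 0.39. All 4 passed the edgeR test in both genotypes, with adjusted p of at most 0.024, and were chosen after their values were seen. None passed it for genotype.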
